A study of Mus musculus with 6 samples.

Results

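The endothelin and angiotensin systems were followed here through 10 genes in a mouse dermal fibroblast cell line, in wild-type cells (WT) and in cells labelled Lap2alpha knockout (KO). The genes were the endothelin A and B receptors (Ednra, Ednrb), the peptide endothelin-1 (Edn1), its converting enzyme (Ece1), angiotensinogen (Agt), the angiotensin II receptors (Agtr1a, Agtr2), angiotensin-converting enzyme (Ace) and 2 surface aminopeptidases (Anpep, Enpep). They were taken by symbol and were chosen by their levels in this same comparison, in which Ednra, Agt and Anpep each stood over 100-fold higher in KO. The KO and WT levels of the members are therefore given as a description with no test. Of the 10 genes, 9 had a row among the 28293 genes of the count files, and Ednrb was not analysed here. Polyadenylated RNA was sequenced in 3 libraries per genotype, all from cells grown in DMEM with fetal calf serum. LAP2alpha is the nucleoplasmic isoform of lamina-associated polypeptide 2, which binds A-type lamins and is encoded by Tmpo. Nothing in the labels tells if the replicates came from different cultures or clones, or how the knockout cells were made. Differences between lines therefore cannot be told apart from the loss of LAP2alpha, and a p-value covers only the spread among the libraries.

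Endothelin-1 is made as a large precursor that furin-type proteases and then endothelin-converting enzyme trim to a short vasoconstrictor peptide, which acts on the G protein-coupled receptors EDNRA and EDNRB. Angiotensinogen is cut by renin to angiotensin I and by angiotensin-converting enzyme to angiotensin II, which acts mainly through the type 1 receptor, while aminopeptidases A (Enpep) and N (Anpep) shorten angiotensin II from its N-terminus. Both peptides are known to promote contraction and matrix synthesis in fibroblasts, mostly through receptors coupled to Gq and G12/13.

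Library totals ran from 22159339 to 27281473 counts. Mitochondrially encoded genes took 1.99 to 2.45% of the counts in the WT libraries and 3.76 to 4.46% in the KO libraries. Tmpo, the targeted gene, stood at 254, 249 and 252 CPM (reads divided by the library's total count and scaled alike in every library) in WT and at 135, 122 and 131 CPM in KO, a count that sums all LAP2 isoforms. In the fit across all genes 11330 of 15081 tested genes were called, that is, had an edgeR adjusted p under 0.05. All 9 fibroblast markers looked at were detected in both groups, and their summed level was 5830 to 6221 CPM in WT and 22520 to 23931 CPM in KO, with 8 called higher and Thy1 lower. Summed markers of melanocytes (2.52 to 4.47 CPM in WT, 3.65 to 5.13 in KO), Schwann cells (2.79 to 3.11 and 10.2 to 13.5), keratinocytes (4.78 to 6.77 and 3.77 to 5.39) and leukocytes (0.866 to 1.01 and 2.75 to 4.42) were low, and their part in the results was not tested.

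The 4 members that differed most between the groups, 3 higher and 1 lower in KO, have dissimilar promoters, and their sequences are shown for that reason. RefSeq (GRCm38.p6) gives a promoter window of 250 bases before to 50 after the start for 9 of the 10 members, all but Agtr1a. The bases before the start are printed 5′ to 3′ on the gene's strand, at chr8:124569707-124569956 (minus) for Agt, chr7:79848211-79848460 (minus) for Anpep, chr8:77724453-77724702 (minus) for Ednra and chr13:42301226-42301475 (plus) for Edn1. Capitals mark matches on either strand to any of 5 short motifs. The first is TATAAA, the core promoter box that binds the TBP protein. Next is CCAAT, which is bound by the factor NF-Y. Another is GGGCGG, the box bound by Sp1-type factors and called the GC box. The remaining motifs are TGANTCA, the site of AP-1 factors, which act downstream of many growth signals, and then GATAAG, the site of zinc finger factors of the GATA family. In the printed bases no match overlapped another.
Agt: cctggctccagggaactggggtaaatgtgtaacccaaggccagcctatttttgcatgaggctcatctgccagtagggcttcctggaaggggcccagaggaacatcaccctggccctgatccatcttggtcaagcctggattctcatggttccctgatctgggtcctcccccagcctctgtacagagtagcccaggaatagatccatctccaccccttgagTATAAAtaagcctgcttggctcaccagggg
Anpep: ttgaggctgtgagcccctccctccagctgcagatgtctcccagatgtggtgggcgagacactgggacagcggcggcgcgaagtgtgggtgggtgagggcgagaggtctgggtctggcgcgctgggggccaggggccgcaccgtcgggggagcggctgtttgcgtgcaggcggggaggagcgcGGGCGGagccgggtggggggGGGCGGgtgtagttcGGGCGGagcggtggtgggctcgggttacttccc
Ednra: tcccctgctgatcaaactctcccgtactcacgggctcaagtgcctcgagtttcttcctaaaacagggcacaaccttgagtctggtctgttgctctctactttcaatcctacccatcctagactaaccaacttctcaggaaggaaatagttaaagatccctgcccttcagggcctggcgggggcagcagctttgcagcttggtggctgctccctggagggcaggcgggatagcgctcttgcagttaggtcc
Edn1: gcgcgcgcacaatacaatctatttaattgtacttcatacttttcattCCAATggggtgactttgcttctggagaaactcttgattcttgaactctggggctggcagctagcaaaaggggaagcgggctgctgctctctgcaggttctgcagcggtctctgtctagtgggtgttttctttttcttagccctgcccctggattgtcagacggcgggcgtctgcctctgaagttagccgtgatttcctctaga

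The Agt window held 1 CpG dinucleotide in 300 bases, fewer than 85.9% of all 32841 RefSeq promoter windows, and TATAAA from 30 to 25 bases before the start. The Anpep window was of the opposite kind, with 28 CpG, 72.3% GC and 3 GC boxes within 68 bases before the start (4 in the whole window). The Ednra window had 8 CpG, close to the median of 7 over all windows, and none of the 5 motifs. The Edn1 window had 11 CpG, with a CCAAT match from 203 to 199 bases before the start and a GATAAG match past the start, outside the stretch shown. TATAAA occurs in 13.6% of all windows, CCAAT in 37.4%, GGGCGG in 35.7%, TGANTCA in 7.81% and GATAAG in 7.44%, so a match is a description of the sequence and not a site. Of the other members, Ece1 has 4 listed windows with 5 to 28 CpG and Ace has 2, with 29 and 2 CpG. The counts used here sum reads over a gene and do not tell which start was used. The 3 genes that were higher in KO thus differed widely in promoter CpG content.

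**Figure D1:**
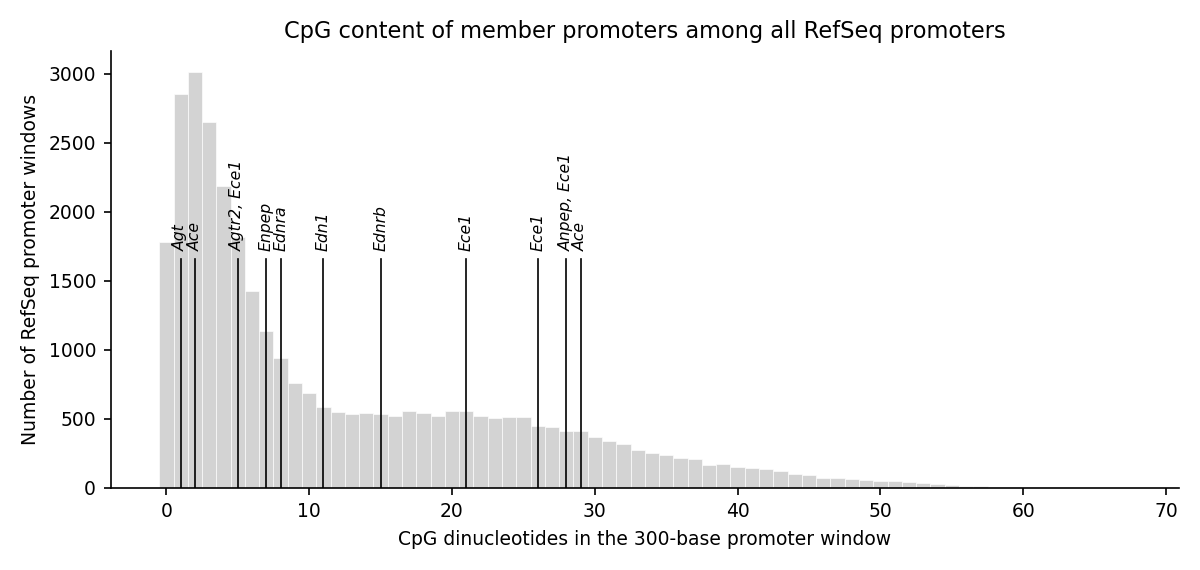
Number of RefSeq promoter windows (y axis) by the number of CpG dinucleotides in the 300-base window (x axis), with vertical lines at the 13 windows of the 9 members that have one. Agt, at 1 CpG, and Anpep, at 28 CpG, lie at opposite sides of the distribution, and Ednra lies near the median.

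Among the receptors, Ednra was nearly silent in WT and present in every KO library. The endothelin A receptor, which couples to Gq and is known for its role in contraction of vascular smooth muscle, had 0, 1 and 1 reads in the WT libraries and 220, 202 and 199 reads in the KO libraries. In CPM the KO libraries stood at 8.064, 7.617 and 7.723. No KO library came near a WT library, and the KO values differed among themselves by only a few percent. With 2 reads over the WT group the pooled ratio was 286-fold (95% exact binomial counting interval 78.9 to 2369), and the fitted log2 fold change was 7.85 (SE 0.290). That value was 7.39 without WT replicate 1, which had 0 reads, and 8.17 without WT replicate 3. Ednra (ENSMUSG00000031616) spans 77663031 to 77724464 of chromosome 8 (GRCm38, minus strand), and 1.66% of its exonic sequence overlaps a gene on the other strand. It passed the low-count filter only through its KO reads. Markers of pericytes and smooth muscle, cells in which Ednra is known to be expressed, went both ways beside it. Rgs5, Notch3 and Des were called higher and Mcam lower, 3 and 1 of the 4 tested markers of a list of 8. Their summed level was 25.6 to 29.3 CPM in WT and 46.6 to 50.1 CPM in KO. Abcc9 was not analysed here, Kcnj8 had 0 reads in WT and 1 in KO, and the smooth muscle myosin gene Myh11 had 8 reads in WT and 12 in KO. The part of these cells in the Ednra level was not tested, and in bulk RNA a change in the number of expressing cells and in RNA per cell cannot be told apart.

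The angiotensin II receptors were at the limit of detection in both groups. Agtr1a, the main receptor of angiotensin II, had 0 reads in WT and 1 read in KO, in KO replicate 3. Agtr2, the receptor that is mainly known from fetal tissue, had 1 read in WT, in WT replicate 1, and 0 in KO. A count of 0 over the 3 libraries allows a level of up to 0.0409 CPM in WT and 0.0377 CPM in KO (3 counts over the group, counting error only). No difference between the groups was detectable for either receptor at this depth, and no fold change is given.

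Among the ligand precursors, Agt was by far the most abundant member in KO, and Edn1 was the member that was most reduced. Agt, whose liver product is the circulating source of angiotensin peptides, had 34, 62 and 43 reads in WT and 5288, 5809 and 5698 reads in KO. In CPM these were 1.534, 2.335 and 1.744 CPM in WT against 193.8, 219.0 and 221.1 CPM in KO. All 3 KO libraries lay far above the highest WT library, WT replicate 2. The mean was 1.87 ± 0.415 CPM in WT and 211 ± 15.2 CPM in KO (SD, n = 3), a pooled ratio of 111-fold (counting interval 94.3 to 133) and a log2 fold change of 6.72 (SE 0.118). Agt (ENSMUSG00000031980) spans 124556534 to 124569706 of chromosome 8, minus strand, with no exonic overlap with another gene. It accounted for 4.34% of all reads of the 9 members in WT and for 67.7% in KO.

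Edn1, the vasoconstrictor peptide best known from endothelium, went the other way from its receptor. It had 238, 274 and 240 reads in WT and 58, 60 and 67 reads in KO, or 10.74, 10.32 and 9.732 CPM against 2.126, 2.263 and 2.600 CPM. Every KO library was below every WT library. The mean was 10.3 ± 0.506 CPM in WT and 2.33 ± 0.244 CPM in KO (SD, n = 3), 4.41-fold lower in KO (counting interval 3.75 to 5.21), with a log2 fold change of −2.22 (SE 0.119). Edn1 (ENSMUSG00000021367) spans 42301476 to 42307990 of chromosome 13, plus strand, and 1.64% of its exonic sequence is overlapped on the other strand. Of 8 endothelial markers 5 had reads, while Tie1, Erg and Cldn5 were not analysed here. Pecam1 had 12 reads in each group, and Tek 16 in WT and 20 in KO. Kdr had 3 in WT and 1 in KO, and Emcn 1 in WT and 3 in KO. The summed level of the list was 1.30 to 1.47 CPM in WT and 0.233 to 0.880 CPM in KO. The only tested marker was the endothelial cadherin gene Cdh5. It fell from 68 reads over the WT group to 14 over the KO group (log2 fold change −2.44, edgeR adjusted p = 0.00011). Cdh5 alone stood at 0.920 ± 0.151 CPM in WT and 0.176 ± 0.0779 CPM in KO (SD, n = 3), so most of the WT sum came from it. It passed the low-count filter only through its WT reads, which favours a call downward. Its part in the Edn1 difference was not tested.

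**Figure D2:**
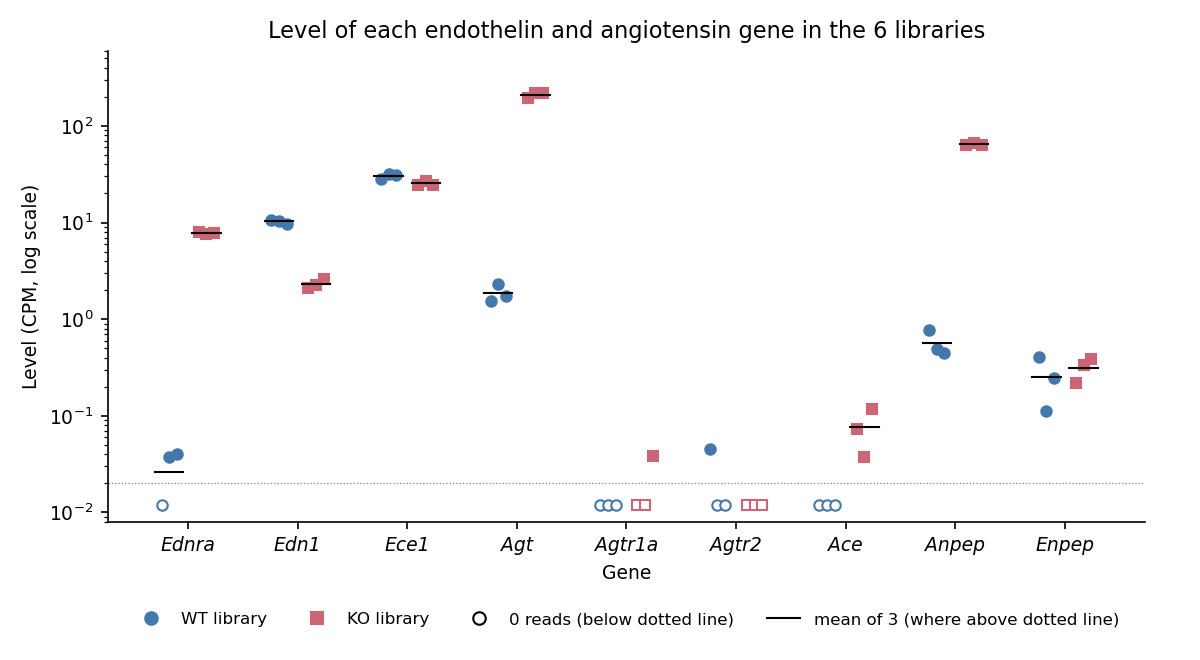
Level of the 9 members that have a row (x axis) in CPM on a log scale (y axis), with circles for the 3 WT and squares for the 3 KO libraries, open symbols below the dotted line for 0 reads, and black bars for group means above that line. Ednra, Agt and Anpep are higher in every KO library than in any WT library, Edn1 and Ece1 are lower, and the libraries of Enpep overlap.

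Among the processing enzymes, Anpep resembled Agt, Ece1 differed little, and Ace and Enpep were scarcely detected. Anpep encodes aminopeptidase N (CD13), a surface peptidase found on many mesenchymal and myeloid cells, which turns angiotensin III into angiotensin IV. It had 17, 13 and 11 reads in WT and 1727, 1777 and 1654 reads in KO, or 0.7672, 0.4896 and 0.4461 CPM against 63.30, 67.01 and 64.19 CPM. Again no KO library approached the WT libraries, and the spread was wider in WT, where counts were few. The mean was 0.568 ± 0.174 CPM in WT and 64.8 ± 1.94 CPM in KO (SD, n = 3), a pooled ratio of 116-fold (counting interval 85.4 to 162) and a log2 fold change of 6.77 (SE 0.119). Anpep (ENSMUSG00000039062) spans 79821803 to 79861059 of chromosome 7, minus strand, with a promoter window that belongs to a start within this span.

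Enpep, aminopeptidase A, which removes the N-terminal aspartate of angiotensin II, is in the same enzyme family as Anpep but showed none of its difference. Its reads were 9, 3 and 6 in WT and 6, 9 and 10 in KO, and the groups overlapped. It did not pass the low-count filter, and the pooled ratio of 1.28 had a counting interval of 0.671 to 2.49. Enpep spans 129269175 to 129332720 of chromosome 3, minus strand.

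Ece1, the zinc protease that releases mature endothelin-1, was expressed at a similar level in both groups. It stood at 28.34, 32.09 and 31.35 CPM in WT and at 24.52, 27.00 and 24.76 CPM in KO. The highest KO library was just below the lowest WT library. The means were 30.6 ± 1.98 and 25.4 ± 1.37 CPM (SD, n = 3), 1.21-fold lower in KO (counting interval 1.14 to 1.28), with a log2 fold change of −0.35 (SE 0.0698), or −0.27 with library totals alone as the scale. Ece1 spans 137862237 to 137965229 of chromosome 4, plus strand. Ace, which makes angiotensin II from angiotensin I and is mostly known from endothelium, had 0 reads in all WT libraries and 2, 1 and 3 reads in KO. Set against a floor of 3 counts over the WT group, the KO level was 1.84-fold. That value takes the 6 KO reads as exact, so it is not a firm lower bound. Ace spans 105967945 to 105989964 of chromosome 11, plus strand, and 5.58% of its exons lie opposite another gene.

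The choice of members noted a rise over 100-fold in KO for Ednra, Agt and Anpep, and no fold limit was applied to the others. The smallest ratio above 100-fold was that of Agt (111-fold). The nearest below it were Ace (1.84-fold, against the WT floor of 3 counts only) and Enpep (1.28-fold). Edn1 and Ece1 were lower in KO, and Agtr1a and Agtr2 have no ratio. Over all tested genes, 39 (0.259%) were called with a fitted fold above 100. A fold of 100 corresponds to 6.64 on the log2 scale. The fitted value was under it for Agt without WT replicate 1 (6.588) or 3 (6.6416, against 6.6439). For Anpep the fitted value was under it without WT replicate 3 (6.60). Of the 9 members with a row, 5 passed the low-count filter, and these 5 were called (3 higher, 2 lower), against 75.1% of all tested genes (37.7% higher, 37.5% lower). The KO and WT values of the 5 did not overlap, which held for 76.8% of all tested genes (42.2% higher and 34.6% lower in KO). These shares follow from the comparison that chose the members, and nothing is read from them.

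Per kilobase of exonic sequence, the order of the members differed between the groups. In WT, Ece1 was highest at 5.77 ± 0.374 CPM per kb (SD, n = 3), followed by Edn1 at 4.80 ± 0.237, Agt at 0.989 ± 0.220, Anpep at 0.137 ± 0.0421 and Enpep at 0.0540 ± 0.0312. The libraries of these neighbours in the order did not overlap, whereas Ednra and Agtr2, with 2 reads and 1 read, could not be ordered. In KO, Agt led at 112 ± 8.03 CPM per kb, above Anpep at 15.7 ± 0.468, Ece1 at 4.80 ± 0.258, Ednra at 1.42 ± 0.0427, Edn1 at 1.09 ± 0.114 and Enpep at 0.0671 ± 0.0184. Ace and Agtr1a, at the lower end, overlapped. On this scale the Agt level in KO exceeded that of 96.3% of the tested genes and in WT that of 23.2%. For Ednra the same shares were 24.1% in KO and 0.312% in WT, so it remained a gene of low level in KO. Edn1 stood above 50.5% of tested genes in WT and above 20.5% in KO.

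**Figure D3:**
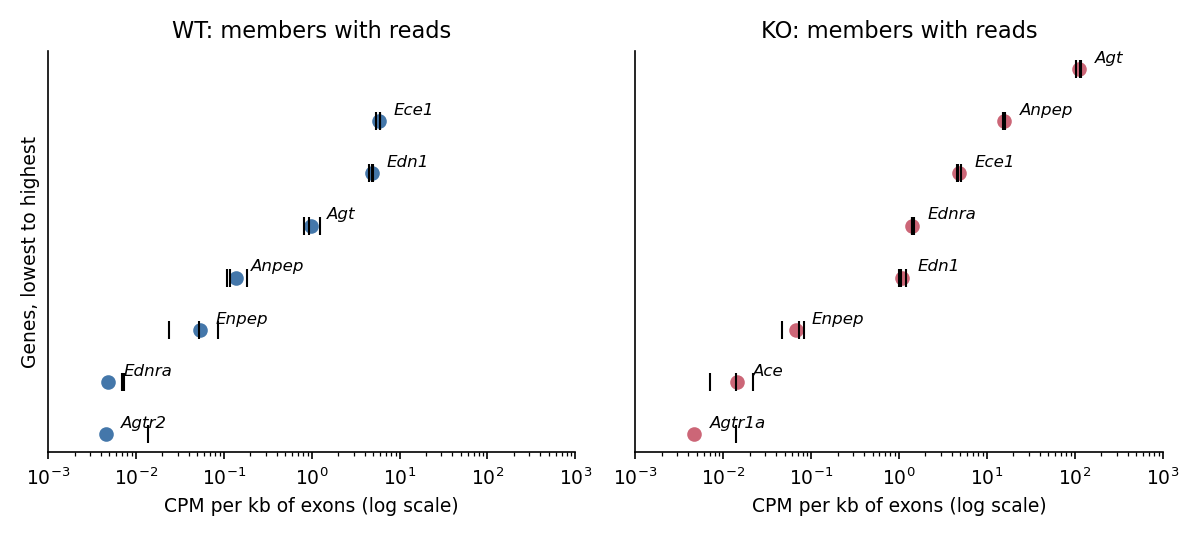
Level of the members with reads in CPM per kb of exons on a log scale (x axis), ordered from lowest to highest within WT (left) and KO (right), with points for the mean of 3 libraries and ticks for libraries above 0. Ece1 and Edn1 lead in WT, at 5.77 and 4.80, and Agt and Anpep in KO, at 112 and 15.7.

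The genes next to the 3 high members on the chromosome moved far less than these members. The 3 were singled out by a rise over 100-fold, which 0.259% of all tested genes showed. A smaller change beside them follows from that choice and is given as a description. For Ednra neither neighbour was called: Tmem184c, 52.3 kb away, stood at 49.8 ± 2.74 CPM in WT and 53.8 ± 1.19 CPM in KO (SD, n = 3), and Gm2225, 762 kb away, had a log2 fold change of 0.10. Next to Agt, Cog2, the gene of a Golgi tethering subunit that lies 4.53 kb from Agt, rose from 35.6 ± 1.07 to 50.6 ± 2.33 CPM (log2 fold change 0.43, edgeR adjusted p = 8.2e-05). On its other side 2310022B05Rik rose by 0.54 (edgeR adjusted p = 2.2e-06). Next to Anpep, Ap3s2, an adaptor complex subunit, rose by 0.38 (edgeR adjusted p = 0.00032), and Gm44705 was not called (0.26). It was called without KO replicate 3 (0.45, edgeR adjusted p = 0.024). Edn1, in contrast, lies 373 kb from Phactr1, a regulator of actin and phosphatase 1. Phactr1 rose from 0.296 ± 0.113 to 5.13 ± 0.460 CPM (log2 fold change 4.001, edgeR adjusted p = 9.8e-08). It passed the low-count filter only through its KO reads, which favours a call upward. Hivep1, on the other side of Edn1, was not called (0.12). Of the genes flanking Ece1, Eif4g3 fell (−0.41) and Rap1gap rose (0.44, edgeR adjusted p = 0.013), the latter not called without KO replicate 3 (edgeR adjusted p = 0.063). Over the 9 members with a row there were 18 such neighbours, of which 8 rose, 4 fell and 6 were not called. Of all tested genes 75.1% were called, 37.7% higher and 37.5% lower, so the neighbours did not stand out by their number of calls.

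**Figure D4:**
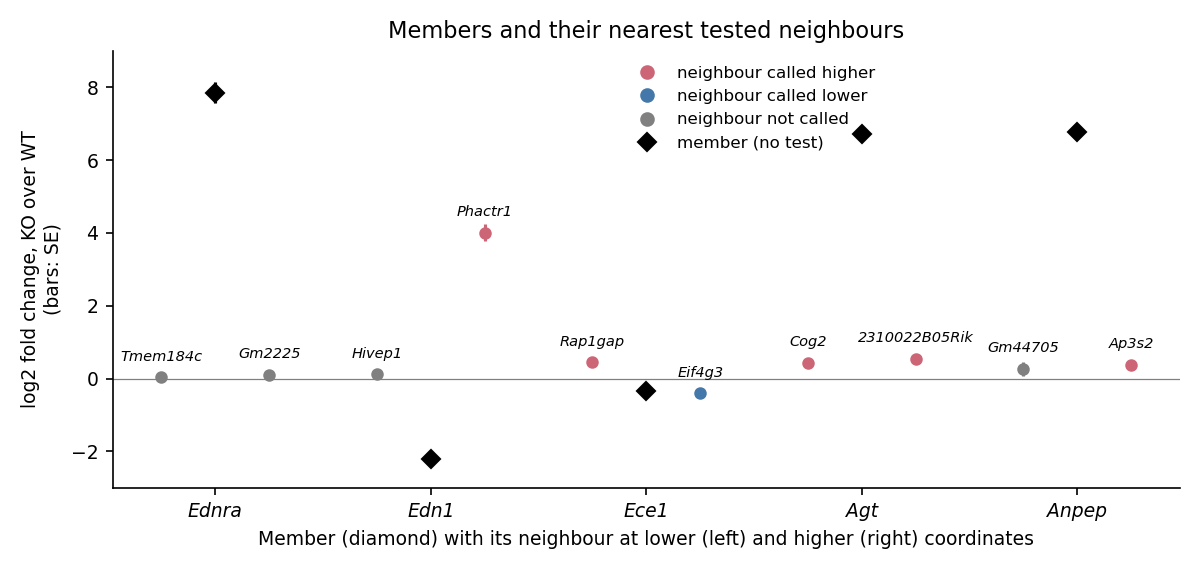
Fitted log2 fold change of KO over WT (y axis, bars for the SE) of the 5 members that passed the low-count filter (diamonds) and of the nearest tested gene on either side of each (circles, coloured by call). The neighbours of Ednra, Agt and Anpep lie between 0.04 and 0.54, while these members lie between 6.72 and 7.85. These members were singled out by their rise, so the gap is a description only.

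For each of Ednra, Anpep and Agt, the 3 genes nearest in level and pattern lay on other chromosomes. Likeness was the distance between log2(CPM + 0.5) values over the 6 libraries, which differ mainly by genotype, so a small distance says only that both group levels were close. The added 0.5 flattens differences among values near 0, as in WT for Ednra, so distances are not compared between members. The genes nearest to Ednra were Gm21680, a predicted gene (distance 0.299), Ggt5, a gamma-glutamyltransferase family member (0.320), and Hkdc1, a hexokinase family member (0.359), at 8.01, 7.06 and 6.95 CPM in KO. For Anpep they were the collagen gene Col11a1 (0.755), the matrix protein gene Sned1 (1.30) and the scavenger receptor gene Scara5 (1.39), at 76.5, 59.6 and 39.8 CPM in KO. For Agt they were Gas7 (1.46), the lysyl oxidase gene Loxl2 (1.71) and the laminin gene Lama4 (2.42), at 206, 118 and 88.3 CPM in KO.

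The other genes of the systems were read from 6 lists of 124 genes that hold none of the 10 members. Of these, 87 were tested, and 46 rose, 21 fell and 20 did not pass, and the median log2 fold change was 0.26. That is 77.0% called, against 75.1% of all tested genes, of which 37.7% were higher and 37.5% lower with a median of 0.01. The lists together thus did not stand out by their number of calls. By list the share called ran from 66.7% (other M1 aminopeptidases) to 83.3% (fibroblast response genes). In the endothelin list both of the 2 tested genes were called.

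In the renin-angiotensin list the genes upstream and downstream of Agt were mostly lower or barely detected. Of 10 tested genes 2 rose, 6 fell and 2 did not pass, and the median log2 fold change was −0.30. Renin itself (Ren1) had 1 read in WT and 0 in KO. The (pro)renin receptor gene Atp6ap2, also a subunit of the proton pump, fell from 332 to 261 CPM (log2 fold change −0.42, edgeR adjusted p = 5.4e-05). The other 5 genes that fell were the peptidase genes Prep, Nln, Thop1, Prcp and Dpp3, most of which are known to cleave angiotensins. Prep fell most, from 173 ± 4.08 to 92.3 ± 0.856 CPM (SD, n = 3), a log2 fold change of −0.99 (edgeR adjusted p = 3.3e-08). Nln, neurolysin, had a log2 fold change of −0.61 (edgeR adjusted p = 3.7e-06). Ctsd, a lysosomal protease that can cleave angiotensinogen, rose from 234 ± 15.3 to 426 ± 13.3 CPM (0.78, edgeR adjusted p = 6.6e-07). Of its exonic sequence 34.4% is shared with another gene model on the same strand. Agtrap, a protein that binds the type 1 receptor and promotes its internalisation, rose from 15.8 ± 1.47 to 25.2 ± 0.670 CPM (0.60, edgeR adjusted p = 4.6e-05). Mas1, a receptor for angiotensin fragments, did not pass the low-count filter, with 8 reads in WT and 25 in KO. Atp6ap2, Thop1, Prcp, Dpp3, Ren1 and Mas1 were named after their values were seen.

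Of the 8 genes in the list of endothelin peptides and relatives of Ece1, 2 were tested and both rose. Phex, an M13 peptidase known from bone mineralisation, rose from 6.26 ± 0.989 to 14.2 ± 2.13 CPM (log2 fold change 1.11, edgeR adjusted p = 3.5e-05). Ece2, the closest relative of Ece1, rose from 1.36 ± 0.356 to 2.10 ± 0.204 CPM (0.54, edgeR adjusted p = 0.044), a call that was lost without WT replicate 1 or 3 or KO replicate 2 or 3 (edgeR adjusted p = 0.094 to 0.178) and in DESeq2 (adjusted p = 0.148). The annotation shares 57.5% of its exonic sequence with another gene model on the same strand. In the list of other M1 aminopeptidases, the family of Anpep and Enpep, 4 of 6 tested genes rose, 0 fell and 2 were not called. The changes were small beside the Anpep difference, with the largest in Erap1, which trims peptides for antigen presentation (0.45, edgeR adjusted p = 0.00057), and smaller ones in Lta4h (0.27), Rnpepl1 (0.26) and Npepps (0.15). Of the exons of Erap1, 11.5% overlap a gene on the other strand. Npepps lost its call without WT replicate 2 or 3 (edgeR adjusted p = 0.068 and 0.062) and with no low-count filter (edgeR adjusted p = 0.090).

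Among receptor coupling genes more were called higher than lower in KO. Of 40 tested genes for Gq and G12/13 proteins, their effectors, receptor desensitisation and the calcineurin pathway, 23 rose, 6 fell and 11 were not called, with a median of 0.35. That is 72.5% called, against 75.1% of all tested genes (37.7% higher, 37.5% lower). The list mixes effectors with genes of desensitisation, so its direction is not read as more or less signalling. The G protein genes themselves moved little: Gnaq was not called (−0.03), Gna11 fell (−0.48) and Gna13 rose (0.29); these 3 were named after their values were seen. The largest increases were in regulators of G protein signalling, which switch off Gq. Rgs5 had 1 read in WT and 138 in KO, a ratio of 127 (counting interval 22.5 to 5062; log2 fold change 6.48, edgeR adjusted p = 3e-06, and 8.44 without WT replicate 3, which held the WT read). Rgs4 rose from 0.0697 ± 0.0281 to 2.22 ± 0.411 CPM (4.85, edgeR adjusted p = 6.9e-07). Like Ednra, Rgs5 and Rgs4 passed the low-count filter only through their KO reads, which favours a call upward. Nfatc4, a transcription factor activated by calcineurin, rose from 2.29 ± 0.631 to 23.8 ± 1.33 CPM (3.29, edgeR adjusted p = 1.4e-08), and Ppp3ca, a catalytic subunit of calcineurin, from 44.8 ± 5.23 to 208 ± 18.6 CPM (2.14, edgeR adjusted p = 1.2e-08).

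Of 11 tested genes of other vasoactive systems 5 rose, 4 fell and 2 were not called. Npr3, the clearance receptor of natriuretic peptides, rose from 8.27 ± 0.929 to 33.4 ± 1.86 CPM (log2 fold change 1.94, edgeR adjusted p = 2.2e-08) and Npr1, the guanylyl cyclase receptor that opposes angiotensin II, from 9.44 ± 1.99 to 16.5 ± 1.01 CPM (0.73, edgeR adjusted p = 0.00043). The vasodilator peptide gene Adm fell from 42.2 ± 3.93 to 28.7 ± 2.11 CPM (−0.64, edgeR adjusted p = 3.5e-05), and Ramp3, which forms adrenomedullin receptors, from 1.52 ± 0.122 to 0.436 ± 0.220 CPM (−1.86, edgeR adjusted p = 0.00037). The bradykinin receptor gene Bdkrb2, named after its values were seen since its level was under 1 CPM, had 13, 20 and 25 reads in WT and 1 read in each KO library (−4.29, edgeR adjusted p = 1.5e-05). Ramp3 and Bdkrb2 passed the low-count filter only through their WT reads, which favours a call downward. The count of 5 that rose was 3 without WT replicate 3.

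Fibroblast genes known to respond to endothelin-1 or angiotensin II did not move in one direction. Of 18 tested genes 10 rose, 5 fell and 3 were not called, with a median of 0.31. Col3a1, fibrillar collagen type III, rose (log2 fold change 3.69, edgeR adjusted p = 1.4e-10). Ptgs2 (−4.07), the cyclooxygenase gene (edgeR adjusted p = 2.9e-10), and Ccn2 (−2.63), connective tissue growth factor, fell. For Ccn2, 23.2% of the exonic sequence lies opposite another gene model.

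**Figure D5:**
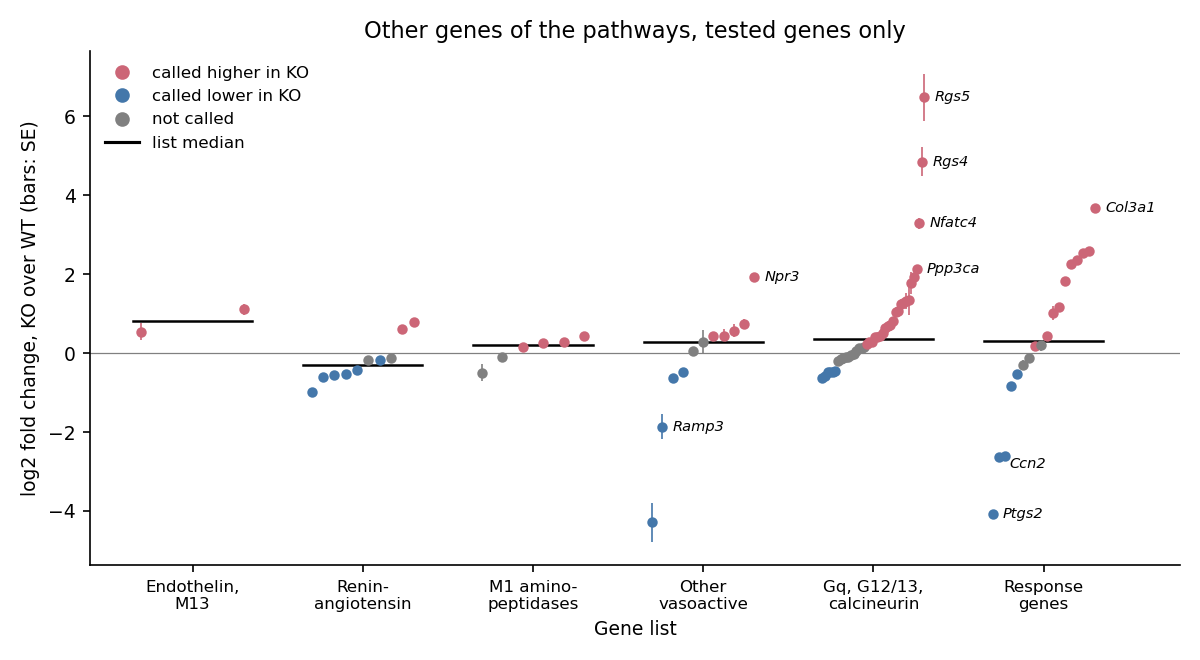
Fitted log2 fold change of KO over WT (y axis, bars for the SE) of the 87 tested genes of the 6 lists (x axis), coloured by call, with black lines at list medians. The renin-angiotensin list has the only median below 0 (−0.30), and the receptor coupling list holds Rgs5 and Rgs4 at 6.48 and 4.85.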

How the data were processed

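Gene expression was measured by RNA-seq in 3 WT and 3 KO libraries. The authors deposited raw read counts per Ensembl gene, and STAR 2.7.10b and GRCm38 are named in the submitters' processing notes. The kit marks strand, per the labels' protocols, but the counting program, its annotation and its strand setting were not given in the sources used here, so reads of overlapping genes may be included. Symbols, positions and exonic lengths came from GENCODE M21 (GRCm38), in which 28230 of 28293 identifiers were found. The members and lists were chosen with earlier results of these data known.

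All genes were fitted in edgeR 4.0.16 (R 4.3.3) with TMM scaling, filterByExpr, the quasi-likelihood test and Benjamini-Hochberg adjustment. The SE is the log2 fold change divided by the root of F. Ratios are of pooled reads over pooled totals, with exact binomial (Clopper-Pearson) intervals that cover counting error only. Genes outside the members were named by rule: per list the 4 called genes with the largest change and at least 1 CPM, the nearest tested neighbour on either side of a member, and the 3 nearest genes in log2(CPM + 0.5). Some genes that this rule names are not reported here. On simulated counts for this comparison (14818 genes) edgeR recovered 34.7% of genes changed 1.25-fold, 76.0% of genes changed 1.5-fold and 98.0% of genes changed 4-fold. Of its calls 6.37% were false. Only 49 or 50 genes were changed at each fold, whereas 11330 genes were called in the data, so these rates may not carry over. Within groups, library pairs differed by more than sampling noise (chi-square per degree of freedom 3.10 to 14.2). Alternatives were DESeq2 1.42.0, limma-voom (limma 3.58.1), other scalings and filters, a replicate block and leaving out each library. Figures were drawn with matplotlib 3.10.9.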

Additional observations from a re-analysis of the deposited data

How the results depend on the processing

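Among the members that passed the low-count filter and the genes named by rule, 0 called fold changes changed sign under the alternatives run. Of uncalled neighbours, Tmem184c (−0.01 without WT replicate 2), Gm2225 (−0.02 without KO replicate 2), Gm44705 (−0.0027 without KO replicate 2) and Gm1848 next to Agtr2 (−0.20 without KO replicate 2) did. The log2 fold change of Ednra was 7.92 with library totals alone, 8.08 in DESeq2 and 7.44 in limma-voom, and was 7.39 to 8.17 when a library was left out. That of Agt was 6.59 to 6.93, Anpep 6.60 to 7.001, Edn1 −2.31 to −2.14 and Ece1 −0.42 to −0.31 when a library was left out. The number of endothelin and M13 genes that rose, 2, was 1 in DESeq2 and 1 to 2 when a library was left out. The number of M1 aminopeptidases that fell, 0, was 1 with no low-count filter and 0 to 1 when a library was left out. The number of other vasoactive genes that rose, 5, was 8 with no low-count filter, where more genes are tested, and 3 to 5 when a library was left out. Hivep1 was called with library totals alone (0.20, edgeR adjusted p = 0.021). With the replicate number as a block, 5832 genes were called higher and 5865 lower, and 48 and 24 genes of the 6 lists. The numbers were not taken as a pairing, since deviations of same-numbered WT and KO libraries correlated at 0.23, −0.13 and 0.22. Depth limits the statements on Agtr1a, Agtr2, Ace and the WT level of Ednra, each resting on 6 or fewer reads over a group.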
